A study of Mus musculus with 4 samples.

Results

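The 33 genes described here carry the machinery of fast and slow inhibition in the brain, out of 21938 protein-coding mouse genes examined. They were chosen as a list of receptor, transporter, synthesis and scaffold genes, by function and not by a threshold on measured values, although earlier results of these data were known when the list was made. The list held 16 subunits of ionotropic GABA receptors, 4 subunits of glycine receptors, 2 subunits of the metabotropic GABA-B receptor, 4 presynaptic genes of transmitter synthesis and vesicle loading, 5 genes of uptake and breakdown, and 2 genes of the postsynaptic scaffold. It is not a complete catalogue of the pathway.

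Trimethylation of lysine 4 of histone H3 (H3K4me3), a mark of active and poised promoters, was measured in left cerebral cortex with chromatin immunoprecipitation followed by sequencing. The tissue came from adult female B6CASTF1/J mice, an F1 hybrid strain, at 2 months of age, with no treatment named. There were 2 pools of 4 biosamples, named J (biological replicate number 1) and I (number 2), and each gave 2 technical libraries. One donor record covers all 4 libraries, and separate animals are not stated for the biosamples, so values that differ between pools may differ for technical reasons. The cortex was sampled whole, so each value is an average over neurons, glia and vessel cells. The peak lists give no values per parental genome.

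GABA is the main inhibitory transmitter of the cortex. It is made from glutamate by the decarboxylases Gad1 and Gad2 in inhibitory neurons, packed into vesicles by Slc32a1, and released onto pentameric chloride channels (the GABA-A receptors) and onto the G protein-coupled GABA-B receptor. Glycine acts on related chloride channels, mainly in brainstem and spinal cord, and gephyrin (Gphn) holds both channel types at the postsynaptic membrane. The transmitters are cleared by Slc6 family transporters of neurons and glia, and GABA is broken down by Abat.

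A gene counted as marked if any peak touched the 1000 bases on either side of any annotated transcript start of the gene. By this rule 25 of the 33 genes were marked in the list of peaks replicated between the pools, against a background of 65.2% of protein-coding genes. The same 25 genes were marked in the list of pool J, where the background was 63.9%, and in that of pool I, where it was 64.8%. The share of the genes in the list, 75.8%, was thus somewhat above that of all genes, with no test made of this difference. The 8 genes without a promoter peak in any list were Gabra6, Gabrp, Gabrr1, Gabrr2, Gabrr3, Slc6a5, Slc6a12 and Slc6a13.

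The marked and unmarked genes differed in the CpG content of their promoters, a feature known to go with H3K4me3. Windows were read from RefSeq's GRCm38.p6 genome sequence (the mm10 build) before the 5′-most GENCODE start. The 4 genes below, picked after their values were seen, show each combination of CpG content and mark. They are Gphn (CpG-rich and marked, chr12:78226129-78226378, plus strand), Gabra3 (CpG-poor and marked, chrX:72656849-72657098, minus strand), Slc6a5 (CpG-rich around its start and unmarked, chr7:49909896-49910145, plus strand) and Gabra6 (CpG-poor and unmarked, chr11:42321073-42321322, minus strand). Each line holds the 250 bases before the start, 5′ to 3′ on the strand of the gene, with CpG dinucleotides in capitals.
Gphn: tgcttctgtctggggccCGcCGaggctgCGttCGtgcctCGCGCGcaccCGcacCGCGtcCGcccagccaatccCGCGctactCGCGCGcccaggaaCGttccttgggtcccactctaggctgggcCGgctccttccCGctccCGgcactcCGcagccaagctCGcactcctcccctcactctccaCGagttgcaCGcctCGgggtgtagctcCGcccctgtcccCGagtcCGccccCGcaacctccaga
Gabra3: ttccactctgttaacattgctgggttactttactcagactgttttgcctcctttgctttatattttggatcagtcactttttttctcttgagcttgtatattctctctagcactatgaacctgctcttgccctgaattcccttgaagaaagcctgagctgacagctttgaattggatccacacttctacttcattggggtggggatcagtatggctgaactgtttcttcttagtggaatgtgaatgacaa
Slc6a5: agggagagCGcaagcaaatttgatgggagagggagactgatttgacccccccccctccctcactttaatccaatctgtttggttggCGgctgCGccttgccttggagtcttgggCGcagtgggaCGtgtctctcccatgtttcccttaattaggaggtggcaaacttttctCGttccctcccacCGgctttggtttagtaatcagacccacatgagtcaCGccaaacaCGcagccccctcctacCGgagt
Gabra6: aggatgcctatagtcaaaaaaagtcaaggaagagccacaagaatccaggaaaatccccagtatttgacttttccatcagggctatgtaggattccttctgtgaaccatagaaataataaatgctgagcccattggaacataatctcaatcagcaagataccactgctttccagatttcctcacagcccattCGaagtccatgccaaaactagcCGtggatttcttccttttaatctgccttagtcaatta

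None of these windows overlaps an annotated exon of a protein-coding gene. The Gphn window holds 29 CpG dinucleotides, that of Slc6a5 10, that of Gabra6 2 and that of Gabra3 0. For all marked protein-coding genes the median was 14 per window, and for all unmarked ones it was 2. Among the genes of the list the median was 15 in the 25 marked and 4 in the 8 unmarked genes.

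Over the wider 1000 bases on either side of the start, the CpG content was expressed as the observed-to-expected ratio, the number of CpG dinucleotides over that predicted from the C and G content. The ratio had a median of 0.486 in the marked genes of the list (0.136 to 0.816) and of 0.234 in the unmarked ones (0.134 to 0.560). In all protein-coding genes the corresponding medians were 0.605 and 0.168. When all genes were divided into 10 equal classes of this ratio, the marked share rose from 3.83% in the lowest to 98.7% in the highest class. The 2 classes next above the lowest held 5 genes of the list, and Gabra3 alone of these was marked. In the 6 highest classes 19 of 20 genes of the list were marked, and the exception was Slc6a5, which takes glycine back up into the terminals of glycinergic neurons. Its ratio was 0.560, in a class of which 96.4% of genes were marked. Gabra3, which encodes a synaptic GABA-A subunit, had a ratio of 0.136, in a class of which 12.4% were marked.

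**Figure D1:**
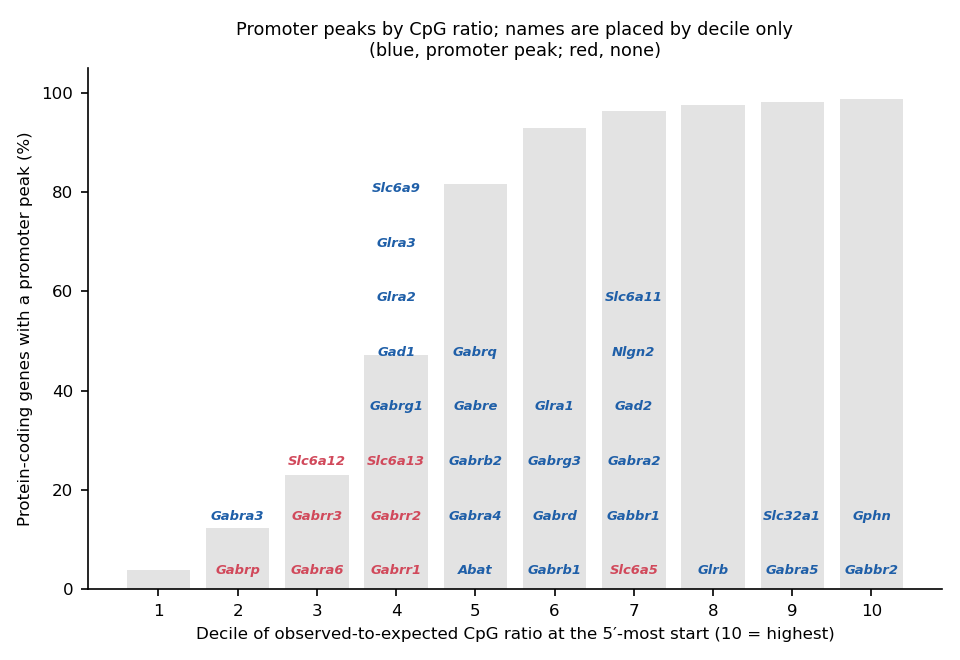
Bars give the percentage of all protein-coding genes with a promoter peak in the replicated list, in 10 equal classes of the observed-to-expected CpG ratio at the 5′-most start. Names place each gene of the list in its class, in blue with and in red without a promoter peak, and their height has no meaning; Gabra3 in class 2 and Slc6a5 in class 7 stand against their class.

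Common promoter motifs were searched on both strands of the same 250 bases. The GC box (GGGCGG) was in 17 of the 33 windows, against 39.0% of all 21938. The CCAAT box (CCAAT) was in 13 of 33, against 36.0%, and the TATA box (TATAAA) in 3 of 33 (Gabra3, Glra2 and Slc6a9), against 11.5%. The cyclic AMP response element (TGACGTCA) was in none of the 33 windows and in 1.96% of all. A match is a description of the letters and not evidence of binding.

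Marked genes were then described by 2 values. The width is that of the domain, made by joining peaks up to 1000 bases apart, and the enrichment is the authors' fold value of the highest promoter peak. In the replicated list the median width of the 25 marked genes was 2742 bases and the median of their enrichments 16.5, against 2124 bases and 20.8 for all 14293 marked genes. Their median width was 2229 bases in pool J and 3051 bases in pool I (mean 2640 ± 581, SD over 2 pools), so the difference in width from all genes lay within the spread between pools. Their median enrichment was 16.2 ± 0.551 (SD, n = 2 pools), against 20.7 ± 0.113 for all marked genes. Within each list it was the lower one, 15.8 against 20.6 in pool J and 16.6 against 20.8 in pool I. The depth of the lists is unknown, so the SD does not measure replicate precision. Domains were called broad when among the widest 5.0% of those of marked genes, over 5166 bases in the replicated list. This held for 3 of the 25, Gabbr1, Nlgn2 and Gabrb2. The domain of Nlgn2 was 1 peak. Those of Gabbr1 and Gabrb2 joined 3 and 2 peaks, the widest of which, 4830 and 4405 bases, were under the limit. Gabrb2 was broad in pool I and not in pool J, and Gad1 was broad in pool I alone.

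**Figure D2:**
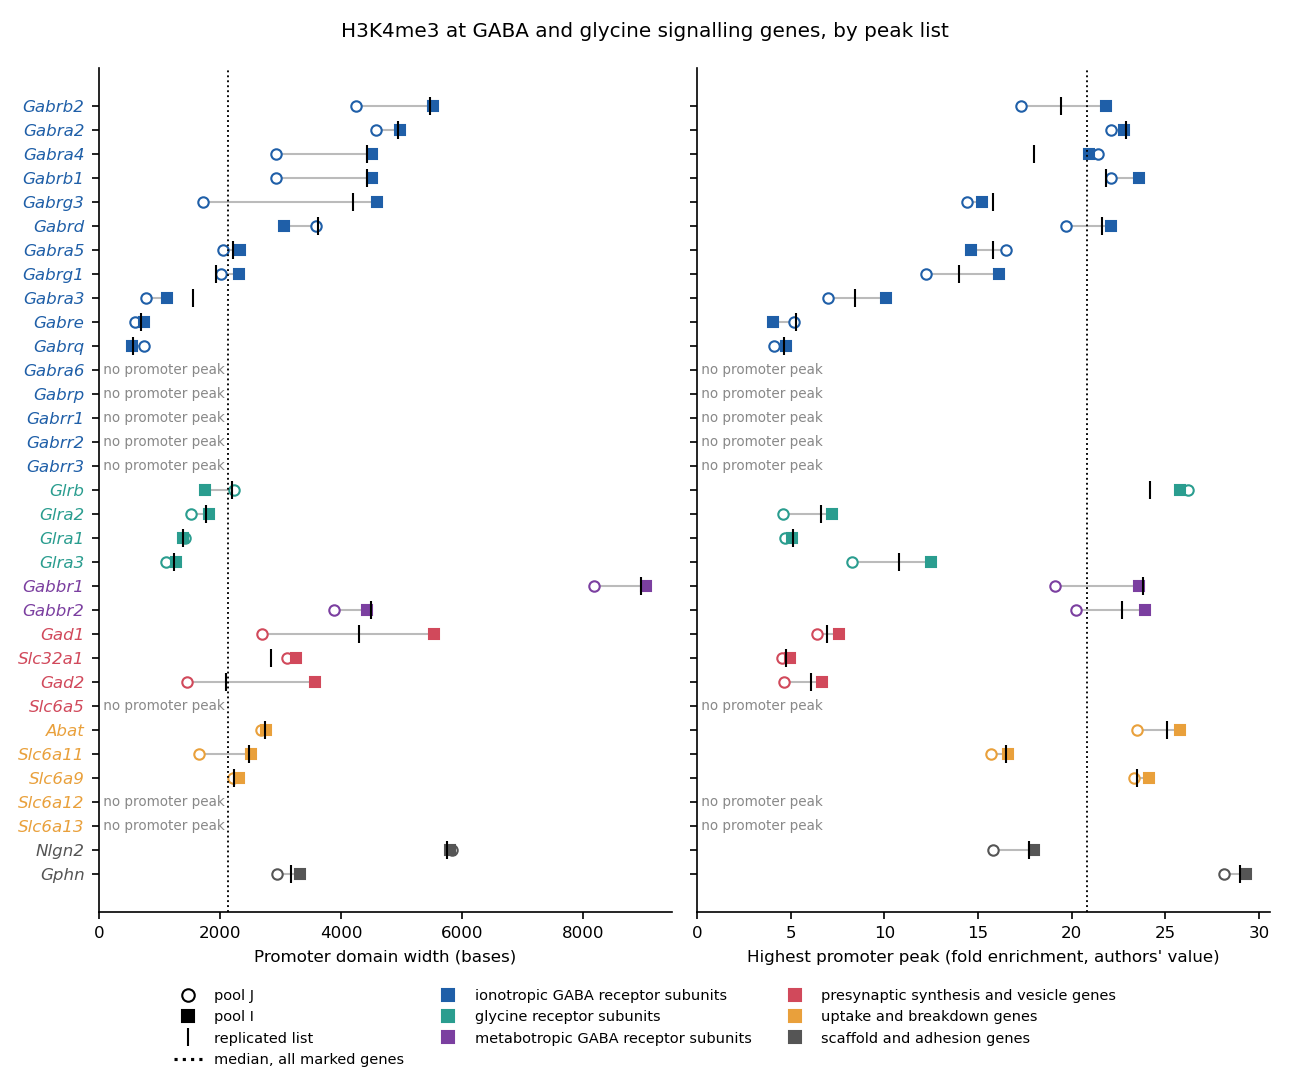
Promoter domain width in bases (left) and the authors' fold enrichment of the highest promoter peak (right) of each of the 33 genes, in pool J (open circles), pool I (filled squares) and the replicated list (vertical ticks), coloured by role. Dotted lines mark the medians of all marked genes, 2124 bases and 20.8, and the presynaptic genes Gad1, Gad2 and Slc32a1 lie far left of the line for enrichment in every list, and for width only Gad2 falls left of it, in pool J and the replicated list.

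Among the ionotropic GABA receptor genes, 11 of 16 (68.8%) were marked, against 65.2% of all protein-coding genes. In the replicated list 7 of the 11 had a domain wider than the median of all marked genes. The domain shared by Gabra4 and Gabrb1 counts for both. Gabra2 encodes an alpha subunit of synaptic receptors. Its domain was 4587 bases wide in pool J and 4984 bases in pool I (mean 4785.5 ± 281, SD over 2 pools), with enrichments of 22.1 and 22.8. It was 1 unbroken peak at chr5:71092112-71097059 in the replicated list, wider than 94.2% of marked genes, and 5 of the 6 annotated starts lay within reach of it.

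Gabrb2 encodes a beta subunit that is common in cortical receptors. Its domain measured 4255 bases in pool J and 5522 bases in pool I, with enrichments of 17.3 and 21.8. In pool I the domain passed the limit for broad ones. Gabrd encodes the delta subunit of extrasynaptic receptors, which carry tonic inhibition. Here the order of the pools was the opposite, with 3589 bases in pool J and 3051 bases in pool I, and enrichments of 19.7 and 22.1.

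Gabra4, an alpha subunit often joined with delta, and Gabrb1, a further beta subunit, lie head to head on chromosome 5. Their first starts are 195 bases apart and their transcripts overlap there, so that 1 domain serves both genes and cannot be assigned to either. It was 2922 bases wide in pool J and 4512 bases in pool I. The enrichment of the peak that both genes share was 21.4 in pool J and 20.9 in pool I. Gabrb1 had a second marked start at position 71699932, under a separate peak at chr5:71699514-71701677. That peak was almost identical in the pools, 2167 and 2163 bases wide, with enrichments of 22.1 and 23.6.

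Gabra5, an alpha subunit of extrasynaptic receptors best known from the hippocampus, had a domain of 2042 bases in pool J and 2330 bases in pool I, near the median of all marked genes, and enrichments of 16.5 and 14.6. The gamma subunit genes Gabrg1 and Gabrg3 differed in how well the pools agreed. Gabrg1 measured 2024 bases in pool J and 2308 bases in pool I. Gabrg3 measured 1724 bases in pool J and 4602 bases in pool I, a ratio of 2.67, although its enrichments of 14.4 and 15.2 were close. In pool I the main peak itself ran on past the start, while in pool J a separate low peak there lay beyond the joining distance.

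Gabra3, Gabre and Gabrq, which encode alpha, epsilon and theta subunits and lie together on the X chromosome, carried the weakest marks of the marked GABA-A genes. Gabra3 had 770 bases in pool J and 1116 bases in pool I, with enrichments of 7.01 and 10.1. Gabre had 588 and 745 bases with enrichments of 5.16 and 4.07, and Gabrq had 736 and 539 bases with enrichments of 4.12 and 4.75. All 3 were below the median width and the median enrichment of marked genes in both pools.

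The 5 unmarked subunits are known mainly from other tissues, and whether this bears on the missing mark was not tested. Gabra6 is the alpha subunit of cerebellar granule cells, Gabrp is known chiefly outside the brain, and Gabrr1, Gabrr2 and Gabrr3 are the rho subunits best known from the retina. All 5 also lay in classes 2 to 4 of the CpG ratio, where 12.4%, 23.0% and 47.2% of all genes were marked. Gabra3 in class 2 and Gabrg1 in class 4 were marked. The parts of tissue and CpG content were not separated. The nearest replicated peak was 98110 bases from any start of Gabra6 and belonged to Gabrb2. It was 64831 bases away for Gabrp, 56089 for Gabrr1, 30185 for Gabrr2 and 13747 for Gabrr3. The peak nearest Gabrr3, a low one of enrichment 3.64, was not in the list of pool J, where the nearest was 64220 bases away. Of 5 marker genes of cerebellar granule cells 4 had a promoter peak (not Barhl1), of 5 of the retina only Nrl did, and of 5 of hindbrain and spinal cord none did. Over all protein-coding genes the share was 65.2%. Whether these small counts bear on the unmarked subunits was not tested.

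All 4 glycine receptor genes were marked, and in the replicated list the domains of the 3 alpha subunit genes were narrower than the median of all marked genes. Glrb, the beta subunit that binds gephyrin, had enrichments of 26.2 (pool J) and 25.8 (pool I) and widths of 2229 and 1744 bases. The alpha subunit genes were weaker. Glra1, the adult alpha subunit of spinal cord and brainstem, had 4.70 and 5.07. Glra2 had 4.61 and 7.22, and Glra3 8.25 and 12.5. In enrichment Glrb thus lay above all 3 alpha genes in both pools, with a gap wider than any spread between pools. In width the order changed between pools. Glrb was the widest of the 4 in pool J at 2229 bases, and Glra2 in pool I at 1816 bases, against 1744 for Glrb.

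Both subunits of the GABA-B receptor were marked in every list. Gabbr1 carries the ligand-binding subunit and had the widest domain of the 33 genes, 8193 bases in pool J and 9048 bases in pool I (mean 8620.5 ± 605, SD over 2 pools). The domain spanned chr17:37044918-37053876 and was wider than 99.5% of marked genes. It was made of 3 peaks, 2 high ones with enrichments of 23.8 and 22.5 on either side of a small one of 6.49, and 8 of the 11 annotated starts were marked. Gabbr2, the subunit that couples to G proteins, had 3879 bases in pool J and 4424 bases in pool I, with 1 of its 4 annotated starts marked.

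The presynaptic genes of inhibitory neurons had low peaks, with domains that were wide for peaks of that height in the replicated list. Gad1 had enrichments of 6.39 in pool J and 7.60 in pool I, Gad2 4.63 and 6.65, and Slc32a1 4.54 and 4.94. In the replicated list, only 8.58%, 7.22% and 4.60% of marked genes had a lower value. Their domains of 4306, 2093 and 2835 bases were nevertheless near or above the median of 2124 bases. Among the 1430 marked genes in the lowest of 10 equal classes of enrichment, whose median width was 775 bases, these domains were wider than 98.8%, 91.1% and 95.5% of the others. The Gad1 domain joined 4 peaks and that of Slc32a1 3, of which the highest spanned 2084 and 1060 bases. That of Gad2 was 1 peak, and in pool J it was wider than only 23.6% of marked genes. In bulk tissue a mark on few cells and a weak mark on many cells cannot be told apart.

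**Figure D3:**
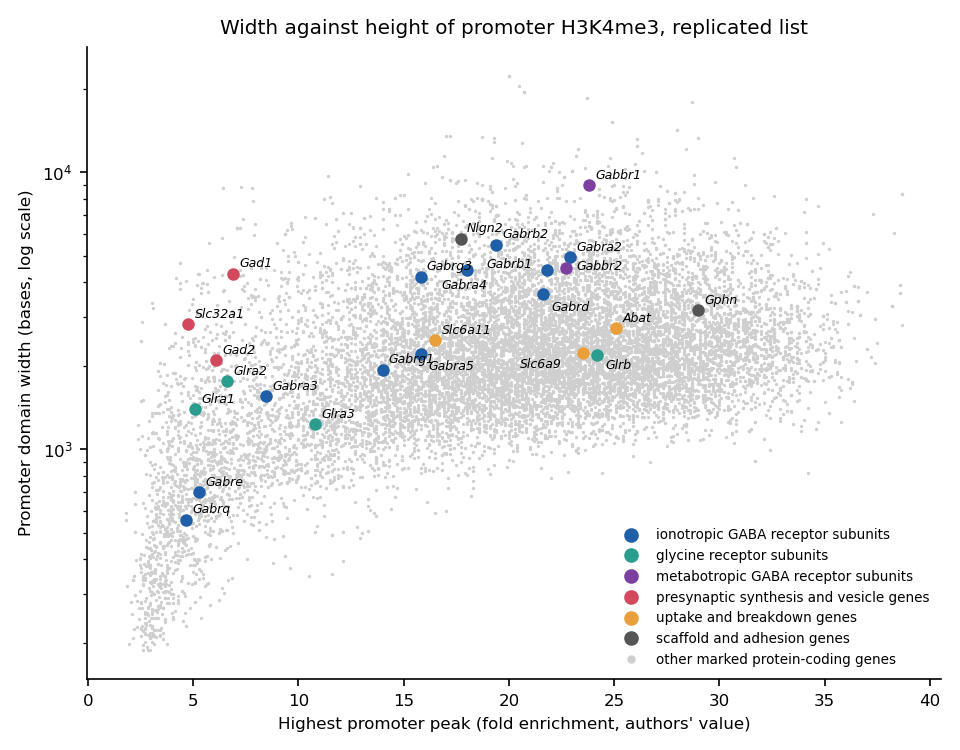
Promoter domain width in bases, on a log scale, against the authors' fold enrichment of the highest promoter peak in the replicated list, for all 14293 marked protein-coding genes (grey) and the 25 marked genes of the list (coloured by role). Gad1, Gad2 and Slc32a1 lie in the upper part of the cloud at enrichments of 4.77 to 6.91; for Gabrb1 the width is that of the domain shared with Gabra4 and the enrichment that of its second start.

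The widths of Gad1 and Gad2 differed widely between the pools. Gad1 measured 2688 bases in pool J and 5538 bases in pool I, and Gad2 1452 and 3573 bases. Slc32a1 was steadier at 3107 and 3262 bases. At Gad1 the mark did not sit at the 5′-most start at position 70553072 but at a group of starts about the highest peak, chr2:70562173-70564256. The antisense gene Gad1os also begins within a promoter peak of Gad1. The CpG ratio was 0.291 at the 5′-most start and 0.721 at the start nearest the summit. Cortical interneuron markers had low values too, as did those of some other cell types. Of 6 interneuron markers, all but Vip had a promoter peak in the replicated list, against 65.2% of all protein-coding genes. Their median enrichment was 5.07, against 18.7 for 5 of 5 excitatory neuron markers. It was 3.34 for 3 of 4 oligodendrocyte, 3.13 for 3 of 4 microglia and 5.65 for 3 of 3 vessel markers. Low enrichment was thus not particular to interneuron markers. Sst was marked in pool I and not in pool J.

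Slc6a5, the neuronal glycine transporter, was the unmarked presynaptic gene. It had a small peak within an intron at chr7:49923175-49923572, 13285 bases from its first start, in the replicated list (enrichment 3.42) and in both pools (3.50 and 3.30). No annotated start of any gene lay within 1000 bases of that peak.

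Among the genes of uptake and breakdown, 3 of 5 (60.0%) were marked, against 65.2% of all protein-coding genes. Slc6a9 is the glycine transporter of astrocytes and some neurons, Slc6a11 a GABA transporter of astrocytes, and Abat the mitochondrial transaminase that degrades GABA. Slc6a9 measured 2210 bases in pool J and 2322 bases in pool I, with enrichments of 23.3 and 24.1. Abat measured 2675 and 2763 bases, with 23.5 and 25.8. Slc6a11 was lower, with enrichments of 15.7 and 16.6 and widths of 1657 and 2506 bases. Slc6a12 and Slc6a13, transporters of betaine and GABA best known from liver, kidney and the meninges, had no peak at any of their 8 and 3 starts. Of 5 astrocyte markers 5 had a promoter peak, with a median enrichment of 9.47.

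The 2 scaffold genes were both marked. Gphn had the highest enrichment of the 33 genes, 28.1 in pool J and 29.3 in pool I, with widths of 2937 and 3319 bases. Nlgn2, the adhesion molecule of inhibitory synapses, had a broad domain of 5831 bases in pool J and 5800 bases in pool I, the closest agreement in width among the 3 broad genes, at enrichments of 15.8 and 18.0. The Nlgn2 peak also covered the start of Tmem256, a neighbouring protein-coding gene.

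The domains were not centred on the starts. In 22 of the 25 marked genes the domain reached further after the start than before it, as it did in 76.3% of all marked genes. The exceptions were Gabrg1, Gabre and Gabrq. The median reach was 728 bases before and 1982 bases after the start in the list, against 743 and 1200 bases in all marked genes. The reach after the start was longest in Gabbr1, at 7677 bases, followed by Gabrb2 at 4896 bases and Nlgn2 at 3962 bases. That of Gabbr1 ran over further starts of the gene, at positions 37050631 and 37050674, under a separate high peak. That of Gabrb2 took in a joined peak of 821 bases and enrichment 3.71.

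**Figure D4:**
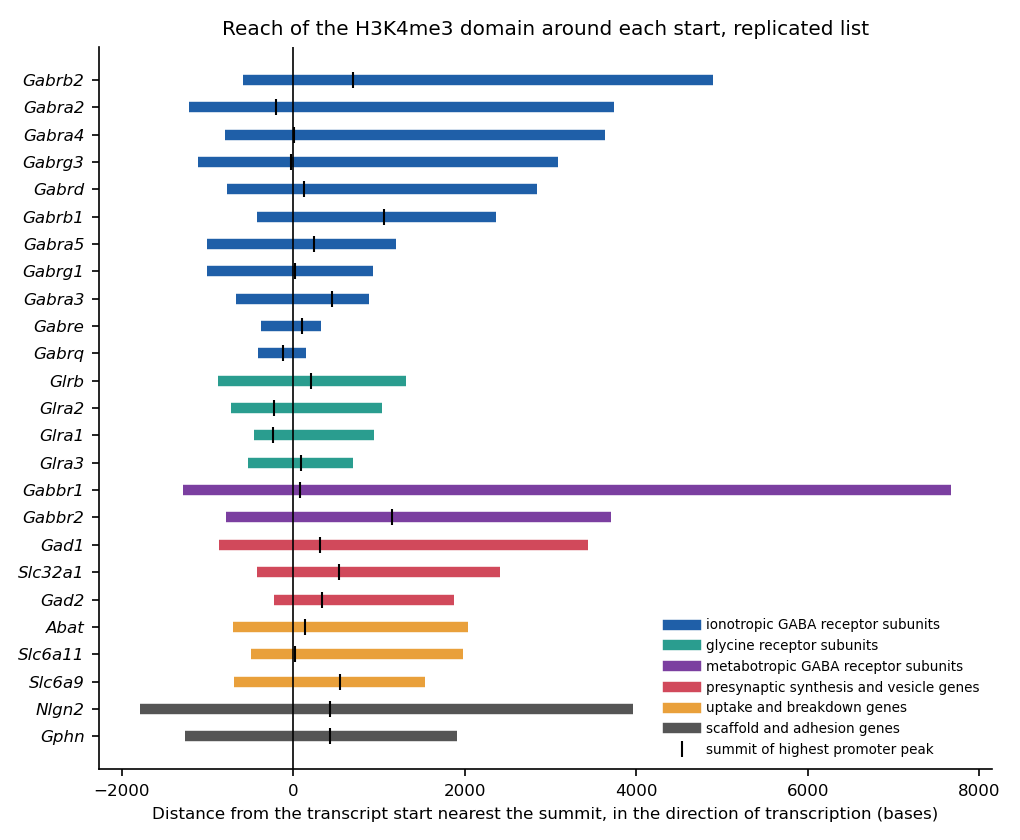
Extent in bases of the promoter domain around the start nearest the summit, in the direction of transcription, for the 25 marked genes in the replicated list, coloured by role, with the summit of the highest promoter peak as a tick. Bars reach further to the right of the start in 22 genes, most in Gabbr1.

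Receptor genes lie in clusters, and the mark was shared unevenly among them. In the chromosome 5 cluster of Gabrg1, Gabra2, Gabra4 and Gabrb1, 1397991 bases long, all 4 genes were marked, by 4 peaks at their starts with enrichments of 14.0 to 22.9. A further 6 peaks away from starts had enrichments of 2.33 to 5.79. On chromosome 7 the starts of Gabrg3 and Gabra5, 122871 bases apart, both had peaks with an enrichment of 15.8. On chromosome 11 Gabrb2 was marked (19.4) and Gabra6, transcribed away from it from a start 98685 bases off, was not. In the X-linked group of Gabre, Gabra3 and Gabrq all 3 genes were marked, at 4.66 to 8.45. The pair Gabrr2 and Gabrr1 on chromosome 4 (100590 bases) and the transporter pair Slc6a13 and Slc6a12 on chromosome 6 (65549 bases) held 0 peaks of any kind in all 4 lists.

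**Figure D5:**
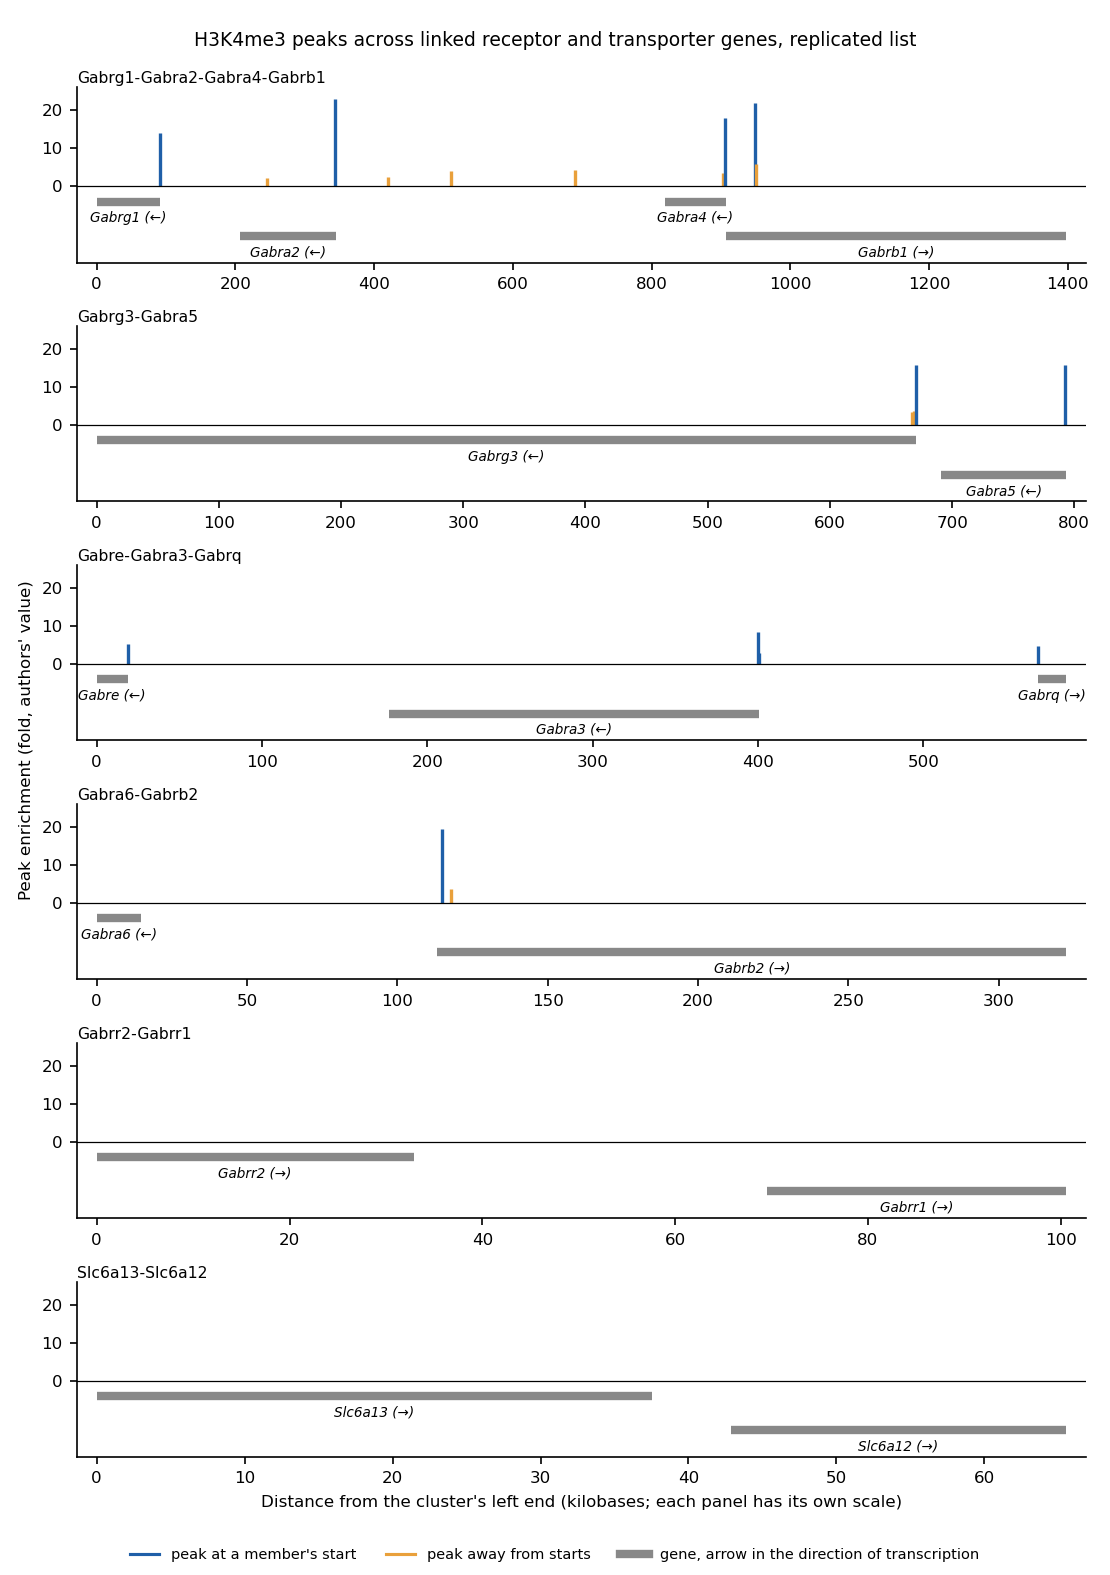
Replicated peaks across the 5 groups of linked receptor genes and the linked transporter pair, as the authors' fold enrichment against distance from the left end of each group in kilobases, with genes as grey bars. Blue peaks lie at starts of listed genes and orange ones away from starts; the X-linked group is low throughout and the 2 lowest panels hold 0 peaks.

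Peaks within gene bodies and away from every annotated start were found in 13 of the 33 genes, 15 peaks in all in the replicated list, against 13.0% of all protein-coding genes. Of the 15 peaks, 10 lay close enough to a promoter peak to be part of a joined promoter domain, so that they also count towards the domains described above. The other 5 were in Gabra2, Gabrr3, Gad1, Gad2 and Slc6a5. Every one of the 15 lay in an intron, and their enrichments of 2.25 to 5.79 overlapped only the lower end of the 4.66 to 29.0 of the highest promoter peaks. Pool J had 5 such peaks and pool I had 12, of which 2 were exonic. Long genes can hold more peaks. Of the 19 genes of the list of at least 50000 bases, 11 (57.9%) had such a peak, against 31.2% of 5007 protein-coding genes of that length, and no test was made of the difference.

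Widths differed between the pools by 1.5-fold or more in 6 of the 25 marked genes, against 4.79% of the 13961 genes marked in both pools. These were Gabra4 and Gabrb1 (1 shared domain), Gabrg3, Gad1, Gad2 and Slc6a11. All 6 were wider in pool I, as were 592 of the 669 genes that differed by this much among all genes. Pool I had more peaks in all, 24508 against 21573, and was the wider one at 10697 of the 13961 genes and at 20 of the 25. Among all genes in the lowest of 10 classes of enrichment, where Gad1 and Gad2 fall, 20.5% differed by 1.5-fold or more. Gabrg3 fell in class 3, Gabra4 and Slc6a11 in class 4 and Gabrb1 in class 6. The shares there were 3.50%, 3.92% and 3.57%. With 1 list per pool these differences have no test, and the part of depth in them was not tested.

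The other genes of the pathway, 36 in number, all had a promoter peak in every list, against 63.9% to 65.4% of all protein-coding genes. Their median width was 3356 bases and their median enrichment 21.2 in the replicated list. The chloride transporters Slc12a2 and Slc12a5, which load and extrude chloride and so set the driving force of these channels, had domains of 5178 and 4654 bases. Of 18 trafficking and inhibitory postsynapse genes, the widest was Slitrk3, a synaptic adhesion molecule (6365 bases). Of 4 auxiliary GABA-B subunits the widest were Kctd16 (7201 bases) and Kctd12 (4533 bases). Of 12 metabolic genes they were Glul, glutamine synthetase of astrocytes (8067 bases), and Glud1, glutamate dehydrogenase (5070 bases).

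The ionotropic glutamate receptors, the excitatory counterpart, had a peak at 16 of 16 genes, against 15 of 20 ionotropic GABA and glycine subunits. The share of all protein-coding genes was 65.2%. The median width of the glutamate receptor domains was 3692.5 bases in pool J, 4897.5 in pool I and 4531.5 in the replicated list. For the marked ionotropic GABA genes it was 2042, 3051 and 3620 bases, in the same order, with the domain shared by Gabra4 and Gabrb1 counted for both. The median enrichment of the glutamate receptor genes, 16.4, was close to the 15.8 of the marked ionotropic GABA genes. Of the 16 glutamate receptor genes 7 were broad, against 1 of the 11 marked ionotropic GABA genes. No test was made of these differences between lists.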

How the data were processed

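H3K4me3 peaks came as 4 lists on mm10, per the labels and the text files deposited with the libraries: pool J alone, pool I alone, both pools' reads together, and peaks replicated between pools. The aligner and peak caller were not given in the sources used here. Read numbers are unknown, which leaves the depth of each list unknown too. The authors' enrichment value is a ratio, taken as fold over a control, and describes or ranks peaks within a list only. Where it is given for both pools or with an SD, the lists are set side by side and not calibrated to each other. Deposited −log10 q values served as filters in alternatives, and the deposited display score was not used.

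Starts and exons were those of GENCODE M21 for 21938 protein-coding genes, the mitochondrial chromosome left out. A gene with a peak of which at least 1 base fell within 1000 bases of any start was marked, and it took its widest domain of peaks joined up to 1000 bases apart. Scripts in Python 3.11.15 were tested on simulated data. The members and lists were chosen with earlier results of these data known, so shares are set beside those of all genes with no test. All members are named, and of other pathway lists the 2 widest genes and those without a peak, of which 1 is not reported here. Each pool gave 1 list, so the SD is taken across 2 pools and pools were not tested against each other. Alternatives changed the window, starts, q, overlap, joining or list.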

Additional observations from a re-analysis of the deposited data

How the results depend on the processing

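The count of marked genes, 25 of 33, stayed at 24 or 25 in the 10 alternatives run. The 5′-most start alone lost Gad1 and a −log10 q of at least 10 lost Gabrq, and no alternative added a gene. The ionotropic subunits stayed at 14 or 15 and the presynaptic genes at 2 or 3. The percentage of all protein-coding genes with a promoter peak, 65.2, moved by more than the spread between pools to 66.2 with a window of 2500 bases, 61.6 with the 5′-most start alone, 64.0 with a −log10 q of at least 5 and 62.3 with one of at least 10. It lay between 63.9 and 64.8 with 1 pool left out. The median enrichment of the marked genes, 16.5, was 17.1 with the 5′-most start alone and with a −log10 q of at least 10 (24 marked genes each), and between 15.8 and 16.6 with 1 pool left out. Their median width, 2742 bases, ranged over 12 alternatives from 2204 bases without joining to 3051 bases in pool I. All 12 moved it by less than the spread between pools, an SD of 581 bases. That is a loose limit, and it was set by the single-pool lists, which are themselves among the alternatives. Depth is unknown, so no peak at a start means that none was called in these lists. No paired analysis was possible because each pool gave 1 list and no test compared groups.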

Other observations

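Several of the peaks at the genes of the list also covered starts of other genes, most of them noncoding. Non-coding partners began within promoter peaks of Gabrb1 (Gm38562), Gabrg3 (Gm9962), Gad1 (Gad1os), Slc32a1 (Gm14204 and Gm14205) and Gphn (Gm48226). The peaks carry no strand, so the mark at these genes cannot be assigned to one of the partners.

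The CpG ratio at the 5′-most start understated that at the marked start for Slc6a9 as for Gad1. It was 0.356 at the 5′-most start of Slc6a9 and 0.645 at the start nearest the summit, and 6 of its 12 annotated starts were marked. At Gabra3 both ratios were low, 0.136 and 0.168.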
